A study of Mus musculus with 10 samples.

Results

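The genes described here code for the machinery that copies nuclear DNA. They were listed by name: 44 genes in all, covering the MCM2-7 helicase, the origin recognition complex (ORC), origin licensing and firing factors, GINS, the replicative polymerases and primase, the sliding clamp with its loader RFC, the single-strand binding protein RPA, ribonucleotide reductase, and the enzymes that finish the lagging strand. A gene was measured where a probe set was annotated to it alone, and where several were, the probe set with the highest mean represented it. Of the 44 genes, 42 were measured, among 18820 genes with a probe set of their own. Gins2 and Rfc4 were found only on probe sets annotated to more than 1 gene and were not analysed. Expression was measured in 10 mouse teratomas, which are growths of several tissues that arise from injected pluripotent cells, with 1 Affymetrix array per tumour. By their labels, all tumours grew from Vhl-/- embryonic stem cells of the J1 line (strain Sv/129), which carried a human VHL cDNA and were placed under the skin of female nude mice (nu/nu). VHL is a tumour suppressor that picks substrates, the hypoxia-inducible factors among them, for ubiquitination. The design asks how tumours with the P81S or the R167Q form of VHL differ from tumours with the wildtype protein.

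The groups were 4 P81S arrays, labelled apoptosis-resistant, 3 R167Q arrays, labelled apoptotic, and 3 wildtype arrays, also labelled apoptotic. Loss of mouse Vhl, the parental line and the host were, by the labels, shared by all of them, and no array without a human VHL cDNA was used. The P81S tumours came from 2 clones with 2 replicates apiece, and which of the arrays belong to the same clone is not labelled. How many clones stand behind the R167Q and wildtype arrays, and which promoter drives the cDNA, is not given in the sources used here. A difference between clones therefore cannot be told apart from a difference between genotypes. The p-values measure the spread between these tumours.

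Replication begins when ORC, with CDC6 and CDT1, loads pairs of MCM2-7 rings onto origins in G1 phase, while geminin holds CDT1 inactive once S phase has begun. The kinase CDC7 with DBF4, together with MCM10, CDC45 and GINS, then turns the loaded ring into an active helicase, and polymerases alpha, delta and epsilon copy the unwound strands behind it. Many of these genes are transcribed under E2F factors in late G1 and S phase, so cycling cells of an early embryo or an embryonic stem cell culture hold much of these transcripts and cells that have left the cycle, such as neurons, hold little.

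Because E2F sites lie in the promoters of many replication genes, the sequence around the transcription start was taken from the RefSeq table of assembly GRCm38.p6, which gives 250 bases before and 50 bases after each start. The motif searched was TTT, followed by 2 letters that are each C or G, followed by CGC, on both strands. The window of 5 genes is printed because they bracket the range of differences reported below: Mcm6 and Mcm5 of the helicase, Orc1 with the steepest fall among the ORC subunits, and Orc3 and Orc4 with the smallest. Capitals mark the motif and overlapping matches are run together.
Mcm6 (chr1:128359656-128359955, minus strand): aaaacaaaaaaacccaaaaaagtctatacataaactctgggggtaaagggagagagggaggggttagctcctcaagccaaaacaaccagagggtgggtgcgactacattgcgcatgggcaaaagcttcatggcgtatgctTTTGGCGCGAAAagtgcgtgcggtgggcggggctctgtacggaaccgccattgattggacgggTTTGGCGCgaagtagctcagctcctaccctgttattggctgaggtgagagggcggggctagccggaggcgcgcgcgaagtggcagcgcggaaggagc
Mcm5 (chr8:75109259-75109558, plus strand): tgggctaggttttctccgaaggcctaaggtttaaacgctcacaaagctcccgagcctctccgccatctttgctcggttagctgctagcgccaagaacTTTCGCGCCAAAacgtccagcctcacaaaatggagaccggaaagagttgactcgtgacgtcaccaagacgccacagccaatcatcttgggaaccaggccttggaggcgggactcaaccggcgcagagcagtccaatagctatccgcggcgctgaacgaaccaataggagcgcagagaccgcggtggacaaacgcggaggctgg
Orc1 (chr4:108579204-108579503, plus strand): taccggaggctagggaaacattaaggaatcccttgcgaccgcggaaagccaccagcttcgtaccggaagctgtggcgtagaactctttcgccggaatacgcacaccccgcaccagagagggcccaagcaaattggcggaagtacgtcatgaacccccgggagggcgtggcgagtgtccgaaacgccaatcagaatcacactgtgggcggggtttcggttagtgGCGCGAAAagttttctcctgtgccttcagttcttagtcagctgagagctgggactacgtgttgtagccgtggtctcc
Orc3 (chr4:34614893-34615192, minus strand): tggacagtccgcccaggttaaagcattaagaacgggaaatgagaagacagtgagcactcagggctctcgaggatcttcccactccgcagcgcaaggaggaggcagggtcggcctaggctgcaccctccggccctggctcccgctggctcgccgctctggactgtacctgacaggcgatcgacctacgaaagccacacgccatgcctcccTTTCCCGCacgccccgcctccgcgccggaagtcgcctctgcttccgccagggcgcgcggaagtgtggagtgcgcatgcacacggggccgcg
Orc4 (chr2:48949218-48949517, minus strand): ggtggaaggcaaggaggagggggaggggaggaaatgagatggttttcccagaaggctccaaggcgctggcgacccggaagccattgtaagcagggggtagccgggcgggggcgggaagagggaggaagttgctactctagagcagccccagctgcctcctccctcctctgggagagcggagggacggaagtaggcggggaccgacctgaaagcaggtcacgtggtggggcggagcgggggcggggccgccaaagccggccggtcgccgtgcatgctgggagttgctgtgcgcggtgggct
Mcm6 had 3 matches, 110, 106 and 47 bases before the start, and Mcm5 had 2, at 153 and 149 bases. The matches at 110 and 106 bases overlap on opposite strands and mark 1 stretch, as do those at 153 and 149 bases. Orc1 had 1 match 27 bases before the start and Orc3 had 1 at 41 bases. The Orc4 window held none of these letters, and RefSeq lists 3 windows for this gene. A RefSeq window was found for 35 of the 42 measured members, and 14 of the 35 (40%) held the motif, against 3.55% of the 14749 genes tested that had a window. Over windows rather than genes, 31.8% of the members' 44 windows held it, against 2.26% of all 32851 windows. The CCAAT box (CCAAT, both strands) was in a window of 65.7% of these members and 41.9% of the genes tested. The cell-cycle homology region, TT, then T or C, then GAA, was in 25.7% of the members and 19% of the genes tested. None of the 3 motifs contains another, and a match is a description of these windows only.

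**Figure D1:**
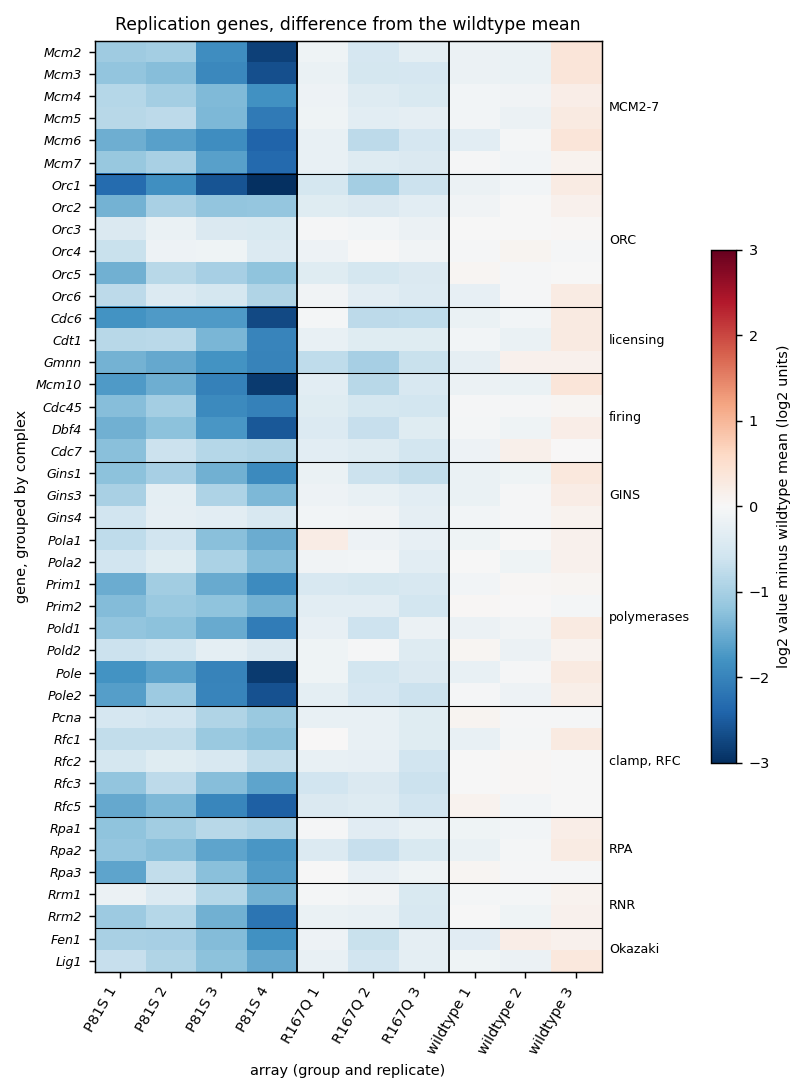
Log2 value minus the wildtype mean (colour, log2 units) for the 42 measured genes, in rows grouped by complex, on the 10 arrays, in columns. Every P81S column is blue in nearly every row and the fourth is the darkest, the R167Q columns are pale blue, and the wildtype columns lie around white.

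Between arrays, log2 values of all genes correlated most closely among wildtype arrays (Pearson's r of 0.989 to 0.994 across genes, which are not independent replicates), and among R167Q arrays r was 0.988 to 0.989. The P81S arrays were the least alike, at 0.966 to 0.989. The Y-linked transcripts Eif2s3y, Kdm5d and Uty were high on all P81S and R167Q arrays and low on all 3 wildtype arrays, with list medians 3.97 to 5.05 log2 units above the wildtype mean. J1 is a male line, and the labels give it for all groups. Both comparisons against wildtype therefore carry this difference in Y-linked transcripts along with the form of VHL, and their effects cannot be told apart. Its cause was not tested. Chromosome shifts were read over genes above the median level, against the midpoint of the wildtype and R167Q means. The median gene of chromosome 11 lay at -0.358 and -0.345 log2 units from that midpoint on P81S arrays 1 and 2. On arrays 3 and 4 it lay at -0.018 and -0.024. That of chromosome 8 lay 0.128 to 0.193 log2 units above the midpoint on the 4 P81S arrays. Values for members on these 2 chromosomes are also given below with chromosome shifts removed. The shifts removed there were taken for every chromosome over all genes, against each gene's mean over all arrays, so they differ from those printed here.

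Of the 42 members, 41 were lower in P81S than in wildtype tumours at an adjusted p under 0.05, 0 were higher, and Orc4 did not pass. Over all 18820 genes, 17.5% were called lower and 17.2% higher in the same comparison. Of the 41, 30 were lower by at least 2-fold, as were 4.95% of all genes. The median difference of the members was -1.27 log2 units, within a range of -2.46 to -0.34, and that of all genes was 0.015. In all 42 members, every P81S array lay below every wildtype array, a separation found for 20.7% of all genes. In tissue RNA, fewer cells that express a gene and less of its RNA per cell cannot be told apart.

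By group mean, the members in R167Q tumours stood between the other groups. All 42 members had a mean order of P81S lowest, R167Q next and wildtype highest. That order was not counted over all genes. Of 18820 genes, 10169 had a lower mean in R167Q than in wildtype, and 8827 in P81S than in R167Q. Between R167Q and wildtype, 0 of the 42 members passed the test, where 0.0266% of all genes were called lower and 0.0638% higher. The members' median difference there was -0.36 log2 units, beside -0.02 for all genes, and 10 members had an unadjusted p under 0.05, all lower, against 5.80% of all genes. This test used a spread estimate shared by all groups, P81S included, and the members varied most within P81S. Their median SD was 0.407 log2 units in P81S, 0.155 in R167Q and 0.174 in wildtype, so the SEs of this comparison carry spread from outside it. Between P81S and R167Q, 35 members were lower in P81S and 0 higher, where 10.1% of all genes were called lower and 12.4% higher. The median difference was -0.91 log2 units, beside 0.023 for all genes, and 16 of the 35 were lower by at least 2-fold, beside 2.63% of all genes. Without R167Q replicate 1 the count of 35 became 23, while 976 of all genes were called lower. Orc3 and Gins3 lost this call when any of 9 arrays was left out, and Pola2 when any of 8 was (adjusted p of 0.0518 to 0.123 for Pola2). Cdt1 and Lig1 lost it for 3 arrays, Fen1, Mcm2, Mcm5 and Pcna for 2, and Gins1, Pola1 and Rrm2 for 1. Arrays did not overlap for 26 members in R167Q against wildtype, beside 12.4% of all genes, and for 36 members in P81S against R167Q, beside 14.2% of all genes. The 7 members not called between P81S and R167Q were Orc4, Orc6, Cdc7, Gins4, Pold2, Rfc2 and Rrm1. P81S against wildtype and R167Q against wildtype share the wildtype arrays, and P81S against R167Q shares arrays with both, so the 3 sets of values are not independent.

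**Figure D2:**
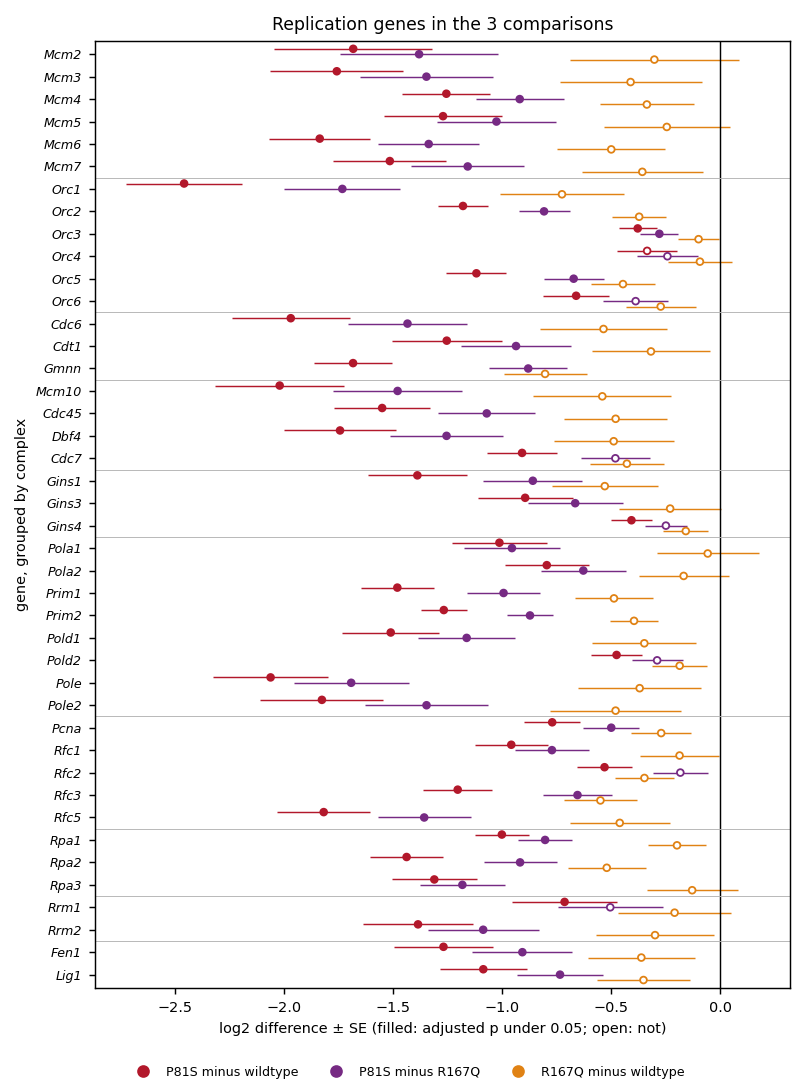
Log2 difference ± SE for each measured gene (rows, by complex) in P81S minus wildtype (red), P81S minus R167Q (purple) and R167Q minus wildtype (orange), filled where the adjusted p is under 0.05. Red points run from -2.46 for Orc1 to -0.34 for Orc4, and all orange points are open and lie left of 0.

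Markers of other cell types moved in the same comparison, and their part in the fall of the replication genes was not tested. Of 14 markers of pluripotent cells, 13 were lower in P81S than in wildtype, with a median difference of -3.29 log2 units, and Klf4 did not pass (adjusted p = 0.263). Their mean log2 level over the list was 6.04 to 7.56 on the P81S arrays, 8.63 to 9.64 on the R167Q arrays and 9.58 to 10.27 on the wildtype arrays. Pou5f1, a defining factor of the pluripotent state, had log2 levels of 7.88, 8.47, 7.71 and 6.14 in P81S, 10.39, 9.70 and 10.76 in R167Q and 10.86, 10.71 and 11.45 in wildtype, and it fell by 3.46 ± 0.46 log2 units in P81S relative to wildtype (adjusted p = 0.000256). Of 11 markers of neurons and glia, 9 were higher in P81S and 0 lower, with a median difference of 0.85 log2 units and mean levels of 11.28 to 11.64 on P81S arrays, 10.54 to 11.11 on R167Q arrays and 10.36 to 10.70 on wildtype arrays. Of 8 markers each, 0 passed for cartilage and muscle and for macrophages. For endoderm and epithelium 2 were lower (Afp and Cdx2), and for endothelium 1 was lower (Pecam1). These 2 counts are near the share over all genes, of which 17.5% were called lower and 17.2% higher. The endothelial markers had a median difference of 0.763 log2 units, and 2 of the 8 had a lower mean in P81S than in wildtype. These log2 values have no true zero, so no marker can be called absent.

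Per-array values below are log2 levels in replicate order, arrays 1 to 4 for P81S and 1 to 3 for the other groups. An error beside a difference is the SE from the limma model, and each adjusted p is corrected over all 18820 genes. The MCM2-7 ring is the replicative helicase, and its 6 subunits act in equal parts. All 6 fell in P81S relative to wildtype, with a median difference of -1.60 log2 units and a range of -1.84 to -1.26. Mcm6 had log2 levels of 9.30, 9.14, 8.90 and 8.37 in P81S, 10.55, 9.98 and 10.27 in R167Q and 10.46, 10.70 and 11.14 in wildtype. Every P81S array lay below every R167Q array, and Mcm6 fell by 1.84 ± 0.23 log2 units relative to wildtype (3.57-fold, adjusted p = 0.000186) and by 1.34 ± 0.23 relative to R167Q (adjusted p = 0.00263). For Mcm3 the log2 levels were 9.16, 9.07, 8.41 and 7.72 in P81S, 10.14, 9.83 and 9.85 in R167Q and 10.18, 10.15 and 10.72 in wildtype. No P81S array overlapped the other groups, the fourth was the lowest, and the difference from wildtype was -1.76 ± 0.30 log2 units (adjusted p = 0.00115). Mcm4, the subunit with the smallest difference, gave log2 levels of 9.81, 9.65, 9.33 and 8.84 in P81S, 10.50, 10.27 and 10.21 in R167Q and 10.57, 10.55 and 10.87 in wildtype. Its P81S arrays again lay below all others, with a difference of -1.26 ± 0.20 log2 units relative to wildtype (adjusted p = 0.000745). Mcm5, on chromosome 8, measured 10.32, 10.37, 9.82 and 9.03 in P81S, 11.02, 10.83 and 10.88 in R167Q and 11.08, 10.97 and 11.42 in wildtype on the log2 scale. The 4 P81S arrays lay below all others while R167Q and wildtype arrays overlapped, and the difference from wildtype was -1.27 ± 0.27 log2 units (adjusted p = 0.00387), or -1.41 with chromosome shifts removed. Mcm2 and Mcm7 differed from wildtype by -1.68 ± 0.36 and -1.52 ± 0.26 log2 units (adjusted p = 0.00415 and 0.00109), and all 6 subunits were also called lower relative to R167Q, with differences of -1.38 to -0.92. Mcm2 and Mcm5 did not pass against R167Q without R167Q replicate 1 (adjusted p of 0.0808 and 0.0791) or 3 (adjusted p of 0.0616 and 0.0578).

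ORC marks origins before any helicase is loaded, and ORC1 is the subunit that is best known to vary through the cell cycle. Its 6 transcripts spread more widely than those of the helicase, with P81S minus wildtype differences of -2.46 to -0.34 log2 units and a median of -0.89, and 5 of 6 passed. Orc1 had log2 levels of 6.67, 7.13, 6.39 and 5.84 in P81S, 8.45, 7.96 and 8.33 in R167Q and 8.80, 8.89 and 9.22 in wildtype. The 3 groups did not overlap, and Orc1 fell by 2.46 ± 0.27 log2 units in P81S relative to wildtype (5.50-fold, adjusted p = 8.66e-05), the steepest fall among the 42 members, and by 1.73 ± 0.27 relative to R167Q (adjusted p = 0.00149). Orc2, part of the stable core, measured 8.68, 9.13, 8.92 and 8.93 in P81S, 9.73, 9.66 and 9.78 in R167Q and 9.99, 10.08 and 10.22 in wildtype on the log2 scale. Its groups did not overlap either, and the difference from wildtype was -1.18 ± 0.12 log2 units (adjusted p = 5.96e-05). Orc5, another core subunit, fell by 1.12 ± 0.14 log2 units (adjusted p = 0.000162). Orc6, the subunit least tightly bound to the core, lies on chromosome 8 and had log2 levels of 9.68, 10.06, 9.94 and 9.57 in P81S, 10.38, 10.16 and 10.07 in R167Q and 10.24, 10.45 and 10.73 in wildtype. P81S arrays lay below both other groups, with a difference of -0.66 ± 0.15 log2 units relative to wildtype (adjusted p = 0.00567) and -0.80 with chromosome shifts removed, and the R167Q and wildtype arrays overlapped. Relative to R167Q the Orc6 difference was -0.39 ± 0.15 log2 units and did not pass (adjusted p = 0.091), and with chromosome shifts removed it was -0.50 and passed (adjusted p = 0.0258).

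Orc3 and Orc4, both core subunits, moved least. Orc3 had log2 levels of 10.43, 10.66, 10.42 and 10.39 in P81S, 10.81, 10.78 and 10.68 in R167Q and 10.85, 10.83 and 10.88 in wildtype. The second P81S array stood above the other P81S arrays, which lay close together, and all 4 lay below the other groups. Orc3 fell by 0.38 ± 0.087 log2 units relative to wildtype (1.30-fold, adjusted p = 0.00607) and by 0.28 ± 0.087 relative to R167Q (adjusted p = 0.0412). The second of these differences did not pass when any of 9 of the 10 arrays was left out (adjusted p of 0.0534 to 0.149), the exception being P81S replicate 2. Orc4 gave log2 levels of 8.41, 8.93, 8.95 and 8.67 in P81S, 8.92, 9.07 and 8.96 in R167Q and 9.03, 9.15 and 9.05 in wildtype. P81S arrays 2 and 3 lay among the R167Q arrays, arrays 1 and 4 were lower, and the differences of -0.34 ± 0.14 log2 units from wildtype and -0.24 ± 0.14 from R167Q did not pass (adjusted p = 0.0874 and 0.253). Orc1 and Orc3 both hold 1 copy of the motif in the printed windows and lie near opposite ends of the range of differences. Over the 35 members with a window, the median P81S minus wildtype difference was -1.39 log2 units for the 14 with the motif and -1.18 for the 21 without it.

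**Figure D3:**
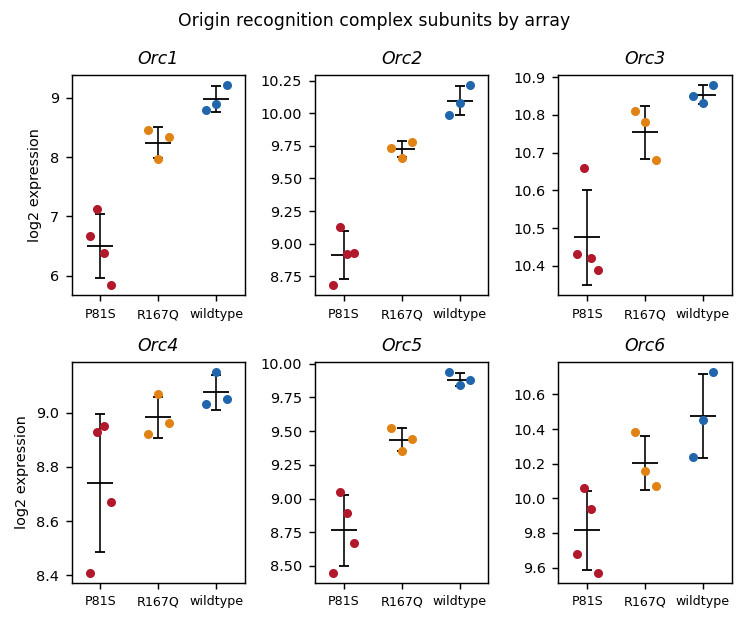
Log2 expression (vertical axes, scaled per gene) of the 6 ORC subunits on the P81S, R167Q and wildtype arrays, as points, with the group mean and SD as bars. P81S points lie far below the others for Orc1, with a difference of -2.46 log2 units from wildtype, and the Orc4 panel is where P81S points reach the R167Q points.

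The licensing factors all fell in P81S relative to wildtype. CDC6 is the ATPase that joins ORC to load the helicase, and Cdc6, on chromosome 11, had log2 levels of 7.06, 7.15, 7.16 and 6.15 in P81S, 8.79, 8.07 and 8.08 in R167Q and 8.66, 8.77 and 9.11 in wildtype. The first 3 P81S arrays were alike, the fourth was lower, at 6.15, and none overlapped the other groups. Cdc6 fell by 1.97 ± 0.27 log2 units relative to wildtype (3.92-fold, adjusted p = 0.000301), and the difference was -1.85 with chromosome shifts removed. CDT1 escorts the MCM2-7 ring to the origin, and Cdt1, on chromosome 8, measured 9.28, 9.30, 8.73 and 8.12 in P81S, 9.88, 9.75 and 9.76 in R167Q and 10.04, 9.92 and 10.38 in wildtype on the log2 scale. All groups were apart, and the differences were -1.25 ± 0.25 log2 units from wildtype and -0.94 ± 0.25 from R167Q (adjusted p = 0.00277 and 0.0215). With chromosome shifts removed, Cdt1 differed from wildtype by -1.39 log2 units. Gmnn, which codes for geminin, the inhibitor of CDT1, had log2 levels of 5.37, 5.24, 5.0 and 4.79 in P81S, 6.03, 5.79 and 6.12 in R167Q and 6.51, 6.92 and 6.92 in wildtype. The 3 groups did not overlap, and Gmnn fell by 1.68 ± 0.18 log2 units in P81S relative to wildtype (3.21-fold, adjusted p = 7.86e-05). All its levels lay below the array medians of 6.97 to 7.11 log2, so this is the fold of a dim transcript with unknown signal over background. Gmnn also had the smallest unadjusted p of the 42 members between R167Q and wildtype (0.00146), with a difference of -0.80 ± 0.19 log2 units that did not pass after adjustment (adjusted p = 0.283). Cdt1 and its inhibitor Gmnn were both lowest in the P81S tumours. The Cdt1 difference from R167Q did not pass without P81S replicate 3 or without R167Q replicate 1 or 3 (adjusted p of 0.0537, 0.0817 and 0.0609).

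Of 5 relatives of these genes with roles outside the replication fork, 2 fell and 1 rose in P81S relative to wildtype. Over all genes 17.5% were called lower and 17.2% higher, so the 1 rise is near the share over all genes. Mcidas, the geminin relative that drives the multiciliated cell programme, had log2 levels of 7.96, 7.13, 7.33 and 7.50 in P81S, 6.58, 6.59 and 6.66 in R167Q and 6.60, 7.09 and 6.40 in wildtype. All P81S arrays lay above all others, and Mcidas rose by 0.78 ± 0.22 log2 units in P81S relative to wildtype (adjusted p = 0.0156) and by 0.87 ± 0.22 relative to R167Q (adjusted p = 0.0146). Gmnc, the third member of the geminin family, also known from multiciliated cells, differed from wildtype by -0.055 ± 0.23 log2 units (adjusted p = 0.882). Mcm8 and Mcm9, MCM relatives that form a separate helicase active in recombination, fell by 1.30 ± 0.18 and by 1.25 ± 0.15 log2 units (adjusted p = 0.000271 and 0.000133). Rrm2b, the p53-inducible small subunit of ribonucleotide reductase used outside S phase, had log2 levels of 7.33, 7.63, 7.39 and 7.86 in P81S, 7.56, 7.52 and 7.52 in R167Q and 7.78, 7.43 and 7.37 in wildtype. Its groups overlapped throughout and the difference between P81S and wildtype was 0.023 ± 0.16 log2 units (adjusted p = 0.932).

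**Figure D4:**
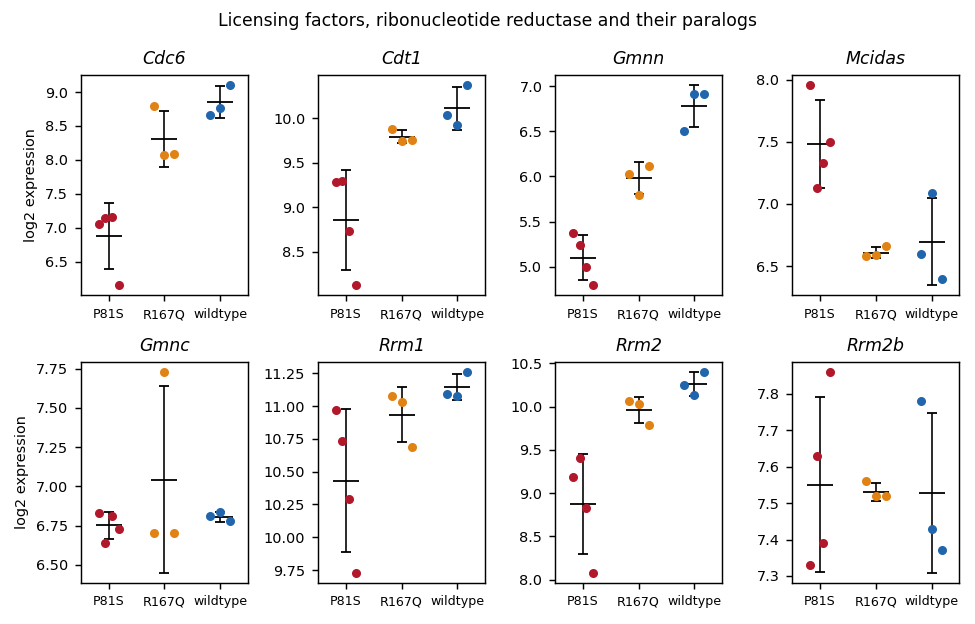
Log2 expression (vertical axes, scaled per gene) on each P81S, R167Q and wildtype array of 3 licensing factors, 2 relatives of geminin and the ribonucleotide reductase genes, with the group mean and SD as bars. P81S points lie below wildtype points for Cdc6, Cdt1, Gmnn, Rrm1 and Rrm2, above them for Mcidas, and among them for Gmnc and Rrm2b.

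Ribonucleotide reductase makes the deoxynucleotides for S phase from a large subunit, RRM1, and a small one, RRM2. Rrm2 had log2 levels of 9.18, 9.40, 8.83 and 8.08 in P81S, 10.06, 10.03 and 9.79 in R167Q and 10.25, 10.13 and 10.40 in wildtype. The 3 groups did not overlap, and Rrm2 fell by 1.39 ± 0.25 log2 units in P81S relative to wildtype (2.62-fold, adjusted p = 0.0016) and by 1.09 ± 0.25 relative to R167Q (adjusted p = 0.0112). Rrm1 was less settled, with log2 levels of 10.97, 10.73, 10.29 and 9.73 in P81S, 11.08, 11.03 and 10.69 in R167Q and 11.09, 11.08 and 11.26 in wildtype. P81S arrays 1 and 2 lay within the R167Q range and under the wildtype arrays, while array 4 was far lower. The difference from wildtype was -0.71 ± 0.24 log2 units (adjusted p = 0.0397), and it did not pass against R167Q (adjusted p = 0.168). The call against wildtype was lost when any of 7 of the 10 arrays was left out (adjusted p of 0.0511 to 0.125), all but P81S replicates 1 and 2 and R167Q replicate 3, and the difference was -0.48 log2 units without P81S replicate 4. It was also lost without a variance trend (adjusted p = 0.0506), with only the compared groups in the model (adjusted p = 0.0646), and without P81S replicates 3 and 4, where the difference was -0.29 log2 units (adjusted p = 0.162). The Rrm2 difference from R167Q did not pass without R167Q replicate 1 (adjusted p = 0.0511). Of 9 other genes of nucleotide supply, 8 fell in P81S relative to wildtype and 0 rose, beside 17.5% and 17.2% of all genes. Shmt1, a folate enzyme that feeds thymidylate synthesis, fell by 2.11 ± 0.25 log2 units, Dctd, the deoxycytidylate deaminase, fell by 1.39 ± 0.19, and Tk1, the S-phase thymidine kinase, fell by 1.30 ± 0.18. The exception was Tk2, the mitochondrial thymidine kinase, with a difference of 0.33 ± 0.13 log2 units that did not pass (adjusted p = 0.0754).

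All 4 firing factors fell in P81S relative to wildtype, with a median difference of -1.65 log2 units. Mcm10, which activates the assembled helicase, had log2 levels of 7.72, 7.96, 7.39 and 6.56 in P81S, 9.12, 8.60 and 8.94 in R167Q and 9.26, 9.23 and 9.79 in wildtype. The groups were apart, and Mcm10 fell by 2.02 ± 0.30 log2 units relative to wildtype (4.06-fold, adjusted p = 0.000428). Dbf4, the regulatory subunit of the CDC7 kinase, measured 8.59, 8.81, 8.29 and 7.50 in P81S, 9.63, 9.36 and 9.67 in R167Q and 9.98, 9.91 and 10.24 in wildtype on the log2 scale. P81S array 4 was again lowest, no groups overlapped, and Dbf4 fell by 1.74 ± 0.26 log2 units relative to wildtype (adjusted p = 0.000451) and by 1.26 ± 0.26 relative to R167Q (adjusted p = 0.00589). Cdc7, the kinase itself, had log2 levels of 6.88, 7.49, 7.27 and 7.23 in P81S, 7.80, 7.73 and 7.57 in R167Q and 7.98, 8.27 and 8.13 in wildtype. Here P81S array 1 was the lowest, and the difference was -0.91 ± 0.16 log2 units from wildtype (adjusted p = 0.00122) and -0.48 ± 0.16 from R167Q, which did not pass (adjusted p = 0.0515). Cdc45, the helicase cofactor, fell by 1.55 ± 0.22 log2 units relative to wildtype (adjusted p = 0.000373).

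GINS joins CDC45 on the active helicase, and its 3 measured subunits all fell in P81S relative to wildtype. Gins1 had log2 levels of 7.59, 7.81, 7.37 and 6.91 in P81S, 8.61, 8.17 and 8.06 in R167Q and 8.62, 8.69 and 9.12 in wildtype. Groups did not overlap, and the difference from wildtype was -1.39 ± 0.23 log2 units (2.62-fold, adjusted p = 0.000807). Gins3, on chromosome 8, measured 7.08, 7.76, 7.13 and 6.71 in P81S, 7.92, 7.85 and 7.74 in R167Q and 7.87, 8.04 and 8.29 in wildtype on the log2 scale. P81S array 2 lay above the lowest R167Q array, and the differences were -0.90 ± 0.22 log2 units from wildtype (adjusted p = 0.0082) and -0.67 ± 0.22 from R167Q (adjusted p = 0.0498). The difference from R167Q did not pass when any of 9 of the 10 arrays was left out (adjusted p of 0.059 to 0.154), all but P81S replicate 2. Gins4, also on chromosome 8, gave log2 levels of 10.68, 10.98, 10.93 and 10.77 in P81S, 11.16, 11.13 and 10.97 in R167Q and 11.16, 11.22 and 11.36 in wildtype. Its P81S arrays lay below the wildtype arrays and reached into the R167Q arrays, with differences of -0.41 ± 0.10 log2 units from wildtype (adjusted p = 0.00691) and -0.25 ± 0.10 from R167Q, which did not pass (adjusted p = 0.0892). With chromosome shifts removed the differences from wildtype were -1.03 log2 units for Gins3 and -0.54 for Gins4. Those from R167Q were then -0.77 log2 units for Gins3 and -0.36 for Gins4, and both passed (adjusted p = 0.0231 and 0.0156).

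The 8 genes of the replicative polymerases all fell in P81S relative to wildtype, with a median difference of -1.38 log2 units. Polymerase epsilon, which copies the leading strand, moved furthest. Pole, its catalytic subunit, had log2 levels of 8.09, 8.26, 7.87 and 7.01 in P81S, 9.75, 9.31 and 9.45 in R167Q and 9.65, 9.84 and 10.13 in wildtype. P81S arrays lay at least 1 log2 unit below every other array, and Pole fell by 2.06 ± 0.26 log2 units relative to wildtype (4.18-fold, adjusted p = 0.000199) and by 1.69 ± 0.26 relative to R167Q (adjusted p = 0.0016). Pole2, its second subunit, measured 7.57, 8.12, 7.24 and 6.61 in P81S, 8.91, 8.71 and 8.58 in R167Q and 9.18, 9.06 and 9.40 in wildtype on the log2 scale. The groups were apart and the difference from wildtype was -1.83 ± 0.28 log2 units (adjusted p = 0.000584). Polymerase delta, the lagging-strand enzyme, was uneven. Pold1, the catalytic subunit, fell by 1.51 ± 0.22 log2 units (adjusted p = 0.000447), and Pold2, a structural subunit on chromosome 11, had log2 levels of 10.63, 10.71, 10.98 and 10.84 in P81S, 11.13, 11.23 and 10.87 in R167Q and 11.33, 11.10 and 11.36 in wildtype. P81S array 3 lay within the R167Q range, and the Pold2 differences were -0.48 ± 0.12 log2 units from wildtype (adjusted p = 0.00862) and -0.29 ± 0.12 from R167Q, which did not pass (adjusted p = 0.104). With chromosome shifts removed, Pold2 differed from wildtype by -0.36 log2 units and from R167Q by -0.19, and only the first passed (adjusted p = 0.0142 and 0.209). In the polymerase alpha and primase complex, which lays down primers, Prim1 and Prim2 fell by 1.48 ± 0.17 and by 1.27 ± 0.10 log2 units and Pola1 and Pola2 fell by 1.01 ± 0.22 and by 0.80 ± 0.19. Of 4 accessory subunits, Pold3 and Pole4 fell by 0.68 ± 0.12 and by 0.49 ± 0.14 log2 units, and Pole3 and Pold4 differed by -0.30 ± 0.13 and 0.19 ± 0.18 and did not pass (adjusted p = 0.0923 and 0.474).

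The sliding clamp PCNA holds polymerases on DNA, and the RFC complex loads it. All 5 measured genes fell in P81S relative to wildtype, with a median difference of -0.96 log2 units. Rfc5 had log2 levels of 10.29, 10.48, 9.87 and 9.36 in P81S, 11.39, 11.44 and 11.25 in R167Q and 11.93, 11.73 and 11.80 in wildtype. The groups did not overlap, and Rfc5 fell by 1.82 ± 0.21 log2 units relative to wildtype (3.53-fold, adjusted p = 0.000128) and by 1.36 ± 0.21 relative to R167Q (adjusted p = 0.0017). Rfc3 measured 9.04, 9.44, 8.95 and 8.65 in P81S, 9.65, 9.79 and 9.58 in R167Q and 10.22, 10.25 and 10.20 in wildtype on the log2 scale. The wildtype arrays lay close together and above all others, with a P81S difference of -1.20 ± 0.16 log2 units (adjusted p = 0.00023). Rfc2 gave log2 levels of 8.73, 8.90, 8.78 and 8.51 in P81S, 9.04, 9.01 and 8.69 in R167Q and 9.25, 9.29 and 9.24 in wildtype. P81S and R167Q arrays overlapped, both lay below wildtype, and the difference was -0.53 ± 0.13 log2 units from wildtype (adjusted p = 0.00762) and -0.18 ± 0.13 from R167Q, which did not pass (adjusted p = 0.356). Rfc1, the large subunit, fell by 0.96 ± 0.17 log2 units, and Pcna fell by 0.77 ± 0.13 log2 units (adjusted p = 0.00124 and 0.000954). A second probe set annotated to Pcna read 11.43 to 12.03 log2 in P81S and 12.49 to 12.62 in wildtype, beside 11.44 to 12.04 in P81S and 12.51 to 12.62 in wildtype for the one used.

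RPA coats the single strands that the helicase exposes. Rpa1, the large subunit, lies on chromosome 11 and had log2 levels of 9.36, 9.53, 9.75 and 9.65 in P81S, 10.53, 10.24 and 10.36 in R167Q and 10.45, 10.50 and 10.78 in wildtype. P81S arrays lay below all others and array 1 was the lowest, with a difference of -1.0 ± 0.12 log2 units from wildtype (adjusted p = 0.000167), or -0.89 with chromosome shifts removed. Rpa2 measured 8.56, 8.46, 8.13 and 7.97 in P81S, 9.31, 9.02 and 9.27 in R167Q and 9.52, 9.67 and 9.96 in wildtype on the log2 scale. No groups overlapped, and Rpa2 fell by 1.44 ± 0.17 log2 units relative to wildtype (2.71-fold, adjusted p = 0.000121). Rpa3, the smallest subunit, gave log2 levels of 8.23, 9.06, 8.56 and 8.12 in P81S, 9.79, 9.56 and 9.67 in R167Q and 9.87, 9.77 and 9.77 in wildtype. P81S array 2 was the highest of its group, no P81S array overlapped the others, and Rpa3 fell by 1.31 ± 0.20 log2 units relative to wildtype (adjusted p = 0.000468). On the lagging strand, FEN1 trims and LIG1 seals the fragments. Fen1 had log2 levels of 7.45, 7.44, 7.14 and 6.61 in P81S, 8.28, 7.77 and 8.16 in R167Q and 8.10, 8.62 and 8.57 in wildtype. R167Q and wildtype arrays overlapped, all P81S arrays were lower, and Fen1 fell by 1.27 ± 0.23 log2 units relative to wildtype (adjusted p = 0.00146). Lig1 measured 9.48, 9.26, 8.93 and 8.64 in P81S, 9.95, 9.60 and 9.88 in R167Q and 10.03, 9.99 and 10.47 in wildtype on the log2 scale. Its groups were apart, and Lig1 fell by 1.09 ± 0.20 log2 units relative to wildtype (adjusted p = 0.00159). Dimmer second probe sets existed for 3 members beside Pcna. That of Rpa3 read 6.47 to 6.83 log2 in P81S and 7.53 to 7.67 in wildtype, that of Gmnn 4.45 to 5.08 in P81S and 5.16 to 5.84 in wildtype, and that of Fen1 5.14 to 5.52 in P81S and 5.49 to 6.28 in wildtype. For Fen1 the P81S and wildtype arrays overlapped on the dimmer probe set.

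The P81S arrays were not equal to each other. The median of the 42 members lay at -1.17, -0.97, -1.31 and -1.78 log2 units from the wildtype mean on P81S arrays 1 to 4, at -0.21, -0.40 and -0.43 on the R167Q arrays, and at -0.09, -0.06 and 0.14 on the wildtype arrays. Array 4 was the lowest P81S array for 35 members and array 1 for 7, and array 2 was the highest for 27. The median SD of a member within P81S was 0.407 log2 units, beside 0.203 for all genes, whereas in R167Q it was 0.155, beside 0.159, and in wildtype 0.174, beside 0.153. On the same 4 P81S arrays the median of the pluripotency markers lay at -3.05, -2.26, -3.19 and -4.08 log2 units from the wildtype mean, and that of 15 mitosis genes at -1.19, -0.96, -1.69 and -2.34. Each of the 3 lists was lowest on array 4 and highest on array 2.

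The wider fork and cell-cycle gene lists were read in the same model, where 17.5% of all genes were called lower and 17.2% higher in P81S than in wildtype. Of 19 further fork and initiation cofactors, 17 fell in P81S relative to wildtype and 0 rose, with a median difference of -1.10 log2 units. Tipin, of the fork protection complex, fell by 1.81 ± 0.20 log2 units, Rnaseh2b, of the enzyme that removes ribonucleotides, fell by 1.09 ± 0.12, and Chtf18, of an alternative clamp loader, fell by 1.74 ± 0.20. Top1, the general topoisomerase, and Chtf8, a partner of CHTF18, differed by 0.0061 ± 0.16 and -0.20 ± 0.12 log2 units and did not pass (adjusted p = 0.984 and 0.215). Of 9 genes of chromatin replication, 8 fell and 0 rose, among them Hat1, the acetyltransferase for new histones, with -1.67 ± 0.15 log2 units, Slbp, the histone mRNA binding protein, with -0.85 ± 0.12, and the histone chaperone Asf1b with -1.28 ± 0.23. Dnmt1, the maintenance methyltransferase, differed by -0.27 ± 0.14 log2 units and did not pass (adjusted p = 0.155). Of 11 genes of S-phase control, 9 fell and 0 rose. Ccne1, the cyclin of S-phase entry, fell by 1.42 ± 0.17 log2 units, and Cul4b and Dtl, of the ligases that destroy CDT1, fell by 0.95 ± 0.14 and by 1.70 ± 0.29.

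Among 19 E2F factors, pocket proteins and partners, 11 fell in P81S relative to wildtype and 1 rose, beside 17.5% and 17.2% of all genes. Tfdp2, an E2F dimer partner, fell by 1.14 ± 0.11 log2 units, E2f1, an activating E2F, fell by 0.95 ± 0.14, and Mybl2, which drives late cell-cycle genes, fell by 2.64 ± 0.39. Rbl2, the pocket protein of the repressive DREAM complex, had log2 levels of 9.0, 8.98, 9.03 and 9.18 in P81S, 8.60, 8.78 and 8.75 in R167Q and 8.56, 8.50 and 8.63 in wildtype. All P81S arrays lay above all others, and Rbl2 rose by 0.48 ± 0.10 log2 units relative to wildtype (adjusted p = 0.00419) and by 0.34 ± 0.10 relative to R167Q (adjusted p = 0.041). Rbl2 lies on chromosome 8, whose median gene was itself raised by 0.128 to 0.193 log2 units on the P81S arrays. How much of the rise that shift accounts for was not tested. Of 11 cell-cycle inhibitors, 3 rose and 3 fell, counts near the shares over all genes (17.2% higher and 17.5% lower). Cdkn1a, which codes for p21, had log2 levels of 11.66, 11.62, 11.61 and 11.70 in P81S, 10.78, 11.22 and 10.95 in R167Q and 10.81, 10.47 and 10.48 in wildtype. The P81S arrays lay close together and above all others, and Cdkn1a rose by 1.06 ± 0.12 log2 units relative to wildtype (2.09-fold, adjusted p = 9.24e-05) and by 0.66 ± 0.12 relative to R167Q (adjusted p = 0.00278). Cdkn2d and Cdkn1b rose by 0.72 ± 0.17 and by 0.58 ± 0.14 log2 units, and Cdkn2a, the locus of p16 and p19ARF, fell by 1.66 ± 0.19 (adjusted p = 0.000102). Cdkn1c and Btg2 also fell, by 1.01 ± 0.25 and by 0.46 ± 0.16 log2 units.

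**Figure D5:**
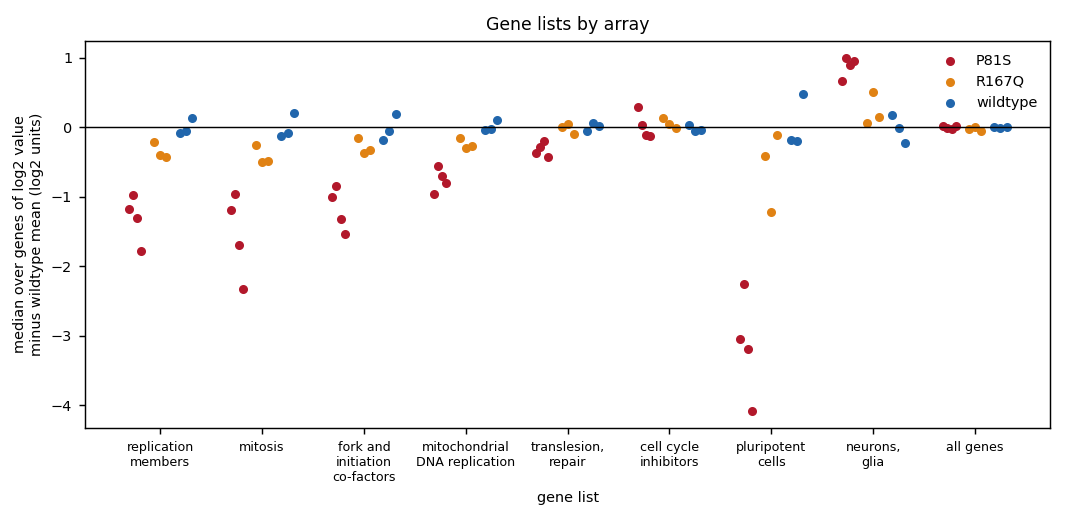
Median over the genes of a list of the log2 value minus the wildtype mean (vertical axis, log2 units), 1 point per array, for the replication genes, 7 other lists and all genes (horizontal axis). P81S points lie below the wildtype points for the replication, mitosis, cofactor, mitochondrial replication, translesion and pluripotency lists and above them for neurons and glia, and all arrays lie near 0 for all genes.

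The lists of translesion and repair polymerases and of mitochondrial DNA replication gave medians smaller in size than that of the replication members. In this comparison 17.5% of all genes were called lower in P81S than in wildtype and 17.2% higher. Of 11 translesion and repair polymerases and partners, 4 fell in P81S relative to wildtype and 0 rose, with a median difference of -0.30 log2 units. Rad18, the ligase that marks PCNA for bypass, fell by 1.21 ± 0.20 log2 units, and the bypass and end-joining polymerases Poli and Polq fell by 0.94 ± 0.15 and by 0.80 ± 0.23. Primpol, a primase that restarts stalled forks, fell by 0.50 ± 0.16 log2 units. Of 12 genes of mitochondrial DNA replication, 11 fell and 0 rose, with a median of -0.74 log2 units. Top3a, a topoisomerase, fell by 1.18 ± 0.13 log2 units, Ssbp1, the mitochondrial single-strand binding protein, fell by 1.30 ± 0.17, and Lig3, the mitochondrial ligase, fell by 1.00 ± 0.14, while Top1mt, the mitochondrial topoisomerase I, differed by 0.30 ± 0.15 and did not pass (adjusted p = 0.161). Top3a and Lig3 also act in the nucleus and lie on chromosome 11. Of 15 mitosis genes, 14 fell and 0 rose, with a median of -1.65 log2 units. Aurkb, Birc5 and Ndc80, of the chromosomal passenger complex and the kinetochore, fell by 1.46 ± 0.16, by 1.83 ± 0.20 and by 1.65 ± 0.20 log2 units. The exception was Mki67, the proliferation marker, with a difference of -0.76 ± 0.28 log2 units (adjusted p = 0.055). Of the other pathway genes named above, Shmt1, Tk1, Aurkb and Birc5 also lie on chromosome 11. Dctd, Tk2, Asf1b, Chtf8, Primpol and Rbl2 lie on chromosome 8. Values with chromosome shifts removed are given for replication members only.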

How the data were processed

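Expression was measured in 10 teratomas on Affymetrix arrays from total RNA. The deposited values are log2 expression per probe set, and RMA and Partek stand in the submitters' processing notes with no version or setting; no scanner files were used, so signal over background is unknown and each difference is relative to the other transcripts of its array. Array medians over 35556 probe sets ran from 6.97 to 7.11 log2. Of these probe sets, 21218 were annotated to 1 gene, 1881 to several and 12457 to none, and the highest-mean probe set stood for each of 18820 genes, of which 1386 had a choice. Probe sequences were not used, so cross-hybridisation between relatives cannot be separated. Folds are ratios of deposited values, with no bound for dim transcripts.

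All 10 arrays entered 1 model with a mean per group, fitted with limma 3.58.1 in R 4.3.3 (two-sided moderated test, eBayes with trend, 7 residual and 3.85 prior degrees of freedom), with statmod 1.5.0 for random blocks. Benjamini-Hochberg adjustment ran over 18820 genes per comparison, and a gene is called under 0.05. The fit was tested first on simulated data with equal spread in all groups and no clones. That check therefore does not cover the wider spread or the clones of the P81S arrays. The members, lists and rules were chosen with earlier results of these data known. Per-array values are given for the members with the largest and smallest differences in each complex and those on chromosomes 8 and 11, and up to 3 genes per pathway list are named by smallest p, with any called against the list's median; other genes named were chosen after their values were seen. The alternatives covered normalization, centring, dim genes, the choice of probe set, variance models, the arrays in the model, blocks, chromosome shifts and leaving arrays out. All array columns were used.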

Additional observations from a re-analysis of the deposited data

Results flagged for a closer look

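In 2 of the 42 members, 1 of the 4 P81S arrays stood apart from the other 3 by more than Dixon's 95% limit, a criterion that chance meets in about 1 group in 20. This count is near that rate. Orc3, a core subunit of the origin recognition complex, was at 10.66 log2 in P81S replicate 2, above the 10.39 to 10.43 log2 of the other P81S arrays. Cdc6, the helicase loading factor, was at 6.15 log2 in P81S replicate 4, below the 7.06 to 7.16 log2 of the other P81S arrays. The R167Q and wildtype groups were not screened.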

How the results depend on the processing

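Under all alternatives run, 0 of the members called in any comparison changed direction. The count of members lower in P81S than in wildtype stayed between 35 (without dim genes, which left 36 members to test) and 41, and the count of members called between R167Q and wildtype was 0 throughout. Leaving out each array in turn gave 40 to 41 members lower in P81S than in wildtype with a median of -1.38 to -1.10 log2 units, 23 to 37 members lower in P81S than in R167Q with a median of -1.0 to -0.79, and a median of -0.42 to -0.27 between R167Q and wildtype. Over all genes these fits called 2579 to 3504 lower and 2494 to 3449 higher in P81S against wildtype, 976 to 2239 lower and 1352 to 2677 higher in P81S against R167Q, and 0 to 6 lower and 5 to 15 higher in R167Q against wildtype.

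With P81S replicates 3 and 4 left out, 23 members were lower in P81S than in R167Q, with a median of -0.67 log2 units, 1091 genes were called lower and 1328 higher, and 3 genes were lower in R167Q than in wildtype. With replicates 1 and 2 left out, the medians were -1.57 log2 units against wildtype and -1.17 against R167Q. Deviations of same-numbered arrays from their group means gave r of -0.28 to 0.21, beside -0.388 to 0.423 for arrays of different number. Deviations within such small groups are tied to each other, so this check cannot exclude a pairing by number. The replicate block kept all 42 member results against wildtype and lost 6 calls against R167Q, with 1237 genes called lower there and 3 lower in R167Q than in wildtype. Without dim genes, 0 genes were lower and 3 higher in R167Q than in wildtype, and with only the compared groups in the model 9 were lower. The cause of these shifts was not tested. Against wildtype, Rrm1, Gins3, Orc3 and Rfc2 lost their call with P81S replicates 3 and 4 left out (adjusted p of 0.162, 0.0633, 0.0584 and 0.053), and Pold2 with replicates 1 and 2 left out (adjusted p = 0.0546). Rrm1 was also lost without a variance trend and with only the compared groups in the model (adjusted p of 0.0506 and 0.0646). A random block for each of the 3 ways to pair the P81S arrays into clones gave correlations of 0.047, -0.23 and -0.029, none far above 0, so it could hardly remove a call and says little about clones. Against R167Q, Gins3 lost its call with arrays 1 and 2 as one clone (adjusted p = 0.0536). Of the members not called against R167Q, Cdc7 passed under 7 alternatives, Orc6 under 3, Gins4 and Rrm1 under 2 each and Pold2 under 1, and Orc4 and Rfc2 under 0.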
